A study of Homo sapiens with 6 samples.

Results

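The comparison described here is the knockdown of CXXC5 in the human leukaemia line UT7-5.3, read as the array labelled shRINF minus the array labelled shcontrol. Its members are the features (transcript clusters) that carry 1 gene symbol and reach a log2 level of 5 or more on either UT7-5.3 array. They number 15784 of the 23781 features with 1 symbol and of the 67528 features on the array. Taking the brightest feature of each gene left 14882 genes, of which 12620 are protein coding. The 354 features just inside the level, whose brighter array lay between 5.00 and 5.09, had a median difference of -0.11, and the 339 just outside, between 4.90 and 4.99, had a median of -0.12. All 7997 features with 1 symbol below the level had a median of -0.04.

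CXXC5, also known as RINF (retinoid-inducible nuclear factor), is a nuclear protein whose CXXC zinc finger binds CpG-rich DNA without methylation. It was described as a retinoid-induced gene of myeloid maturation, and it takes part in Wnt and in TGF-beta and BMP signalling. UT-7 is a cytokine-dependent megakaryoblastic leukaemia line that keeps erythroid and megakaryocytic features, and UT7-5.3 is derived from it.

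Both UT7-5.3 cultures were proliferating, carried a lentiviral shRNA vector and were grown with GM-CSF. UT7-5.3 shRINF expressed an shRNA against CXXC5 and UT7-5.3 shcontrol a control shRNA. The same pair of arrays from K562 (chronic myeloid leukaemia, erythroid features) and from MV4-11 (acute leukaemia, monocytic features) serves only to show where UT7-5.3 differs. Each condition of each line is 1 array, so no difference below has a replicate, an error or a p-value, and culture, array and shRNA cannot be told apart within a line. In bulk RNA, fewer cells of a type and less RNA per cell cannot be told apart either.

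The UT7-5.3 arrays carried the erythroid and megakaryocytic markers of the line. All 9 erythroid and megakaryocytic markers on the array were above the level minimum, at 7.49 to 9.81 in shcontrol. KIT, the stem cell factor receptor, was at 8.64 in shRINF and 8.60 in shcontrol, against 4.56 in K562 shcontrol. Not every marker set the line apart from K562. GATA1 was at 9.81 in UT7-5.3 shcontrol and 10.39 in K562 shcontrol, and GFI1B at 8.13 and 8.85. Others were higher in UT7-5.3, such as ITGA2B at 8.79 against 6.23 in the same arrays. Of 22 markers of other cells, 18 were under 7 on both UT7-5.3 arrays: MS4A1 of B cells was at 3.08 in shRINF and 3.18 in shcontrol, and DCN of fibroblasts at 2.93 in shRINF and 2.91 in shcontrol. The 4 at 7 or more, named after their values were seen, were the myeloid lysozyme gene LYZ, at 10.10 in shRINF and 9.84 in shcontrol, the integrin ITGAM, at 8.01 in shRINF and 8.47 in shcontrol, and the keratins KRT18, at 9.58 in shRINF and 9.52 in shcontrol, and KRT8, at 7.86 in shRINF and 7.87 in shcontrol.

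CXXC5 itself was at 7.76 on the shRINF array and 8.42 on the shcontrol array. The difference of -0.66 leaves 63.3% of the control level and places CXXC5 39th from the lowest of 14882 genes. The corresponding differences were -0.63 in MV4-11 (7.95 in shRINF, 8.58 in shcontrol) and -0.45 in K562 (7.95 in shRINF, 8.40 in shcontrol). The arrays thus show 63.3% to 73.2% of the control level in the 3 lines. Among the 12 kept members of the CXXC family list, 10 were lower and 2 higher in UT7-5.3 shRINF. KMT2B, a histone H3K4 methyltransferase with a CXXC finger, was at 7.85 in shRINF against 8.55 in shcontrol (-0.70). TET2 and TET1, which oxidise methylated cytosine, were the members above 0, with differences of 0.35 for TET2 and 0.31 for TET1. SMAD7, the inhibitory SMAD of TGF-beta signalling, was at 5.45 in shRINF and 5.51 in shcontrol (-0.06).

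Across all features, 525 (3.33%) were at least 0.5 log2 units (1.41-fold) higher in shRINF and 212 (1.34%) were at least 0.5 lower. At 1 log2 unit or more, 31 features (0.196%) were higher and 5 (0.0317%) lower. Counted by gene, 514 (3.45%) were 0.5 or more higher and 182 (1.22%) 0.5 or more lower, with 31 (0.208%) and 5 (0.0336%) at 1 or more. Of the 31 higher genes, 16 were small nucleolar RNA copies of a single block, SNORD113 and SNORD114, described below. Several of the 31 reached the level of 5 on the shRINF array only, such as LINC03106 (4.77 in shcontrol) and SNORD114-24 (4.32 in shcontrol). The 5 lower genes were above 5 on both arrays, so values near the floor enter the higher count and not the lower one. Most genes lay slightly below 0: 42.2% were above 0 and 56.5% below, with a median of -0.06. The interquartile range was -0.20 to 0.18, and the SD over genes was 0.264, against 0.102 in K562 and 0.188 in MV4-11. Of the features 0.5 or more apart, 71.2% were higher in shRINF. That share was 87.4% with the median difference subtracted, and 60.7% once trends with mean level, gene span and promoter CpG were removed among the 11587 features that have those values. The count of features 0.5 or more higher was 832 with the median subtracted and 267 with these trends removed.

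The gene-coding features furthest above 0 were EPSTI1, NTS and HBD. EPSTI1, an interferon-inducible gene, was at 7.86 in shRINF and 6.36 in shcontrol, a difference of 1.5 (2.83-fold). NTS encodes the secreted peptide neurotensin and was at 6.70 in shRINF and 5.24 in shcontrol (1.46). HBD, the delta-globin gene, was at 8.46 in shRINF and 7.14 in shcontrol (1.32). The remainder of the 20 highest protein-coding genes lay between 0.90 and 1.24. They include receptors and transporters, such as the organic anion transporter SLCO4C1 (8.63 in shRINF, 7.39 in shcontrol), the lysophosphatidylserine receptor GPR174 (7.23 in shRINF, 6.06 in shcontrol) and the chemokine receptor CCR4 (8.20 in shRINF, 7.15 in shcontrol). Also among them were the mucin-type glycosyltransferase GALNT5 (8.17 in shRINF, 6.98 in shcontrol), the protease inhibitor CSTA (5.92 in shRINF, 4.93 in shcontrol) and the signalling adaptor STAP1 (7.96 in shRINF, 7.0 in shcontrol). In 2 of the 20 genes the control array was under 5, so that the size of their difference includes values near the floor. In K562, 16 of the 20 were above 0, the largest being HBD at 0.65, and in MV4-11 10 were above 0. Of all genes also kept in those lines, 52.2% were above 0 in K562 and 49.0% in MV4-11. Several of the 20 were under the level minimum there, such as NTS at 2.48 in K562 shRINF and 2.51 in K562 shcontrol. The sign of such a dim feature says little.

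The 20 lowest protein-coding genes lay between -1.04 and -0.71, and several encode large nuclear proteins. KMT2D, which methylates histone H3K4 at enhancers, was at 7.35 in shRINF and 8.39 in shcontrol (-1.04). POLR2A, the catalytic subunit of RNA polymerase II, was at 8.96 in shRINF and 9.99 in shcontrol (-1.03). SRCAP, a chromatin remodeller that deposits H2A.Z, was at 7.28 in shRINF and 8.10 in shcontrol (-0.82). The same set holds the DNA damage mediator MDC1 (-0.81), the transcriptional cofactor HCFC1 (-0.77) and the splicing factor SRRM2 (-0.71). Of membrane and secreted proteins, the matrix proteoglycan HSPG2 was at 6.62 in shRINF and 7.57 in shcontrol (-0.95), and the drug exporter ABCC1 at 7.86 in shRINF and 8.60 in shcontrol (-0.74). FASN, the fatty acid synthase, was at 8.70 in shRINF and 9.49 in shcontrol (-0.79). HDC, which makes histamine, was at 4.59 in shRINF and 5.50 in shcontrol (-0.91). In K562 these 20 genes ranged from -0.22 to 0.22, and in MV4-11 from -0.26 to 0.32.

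**Figure D1:**
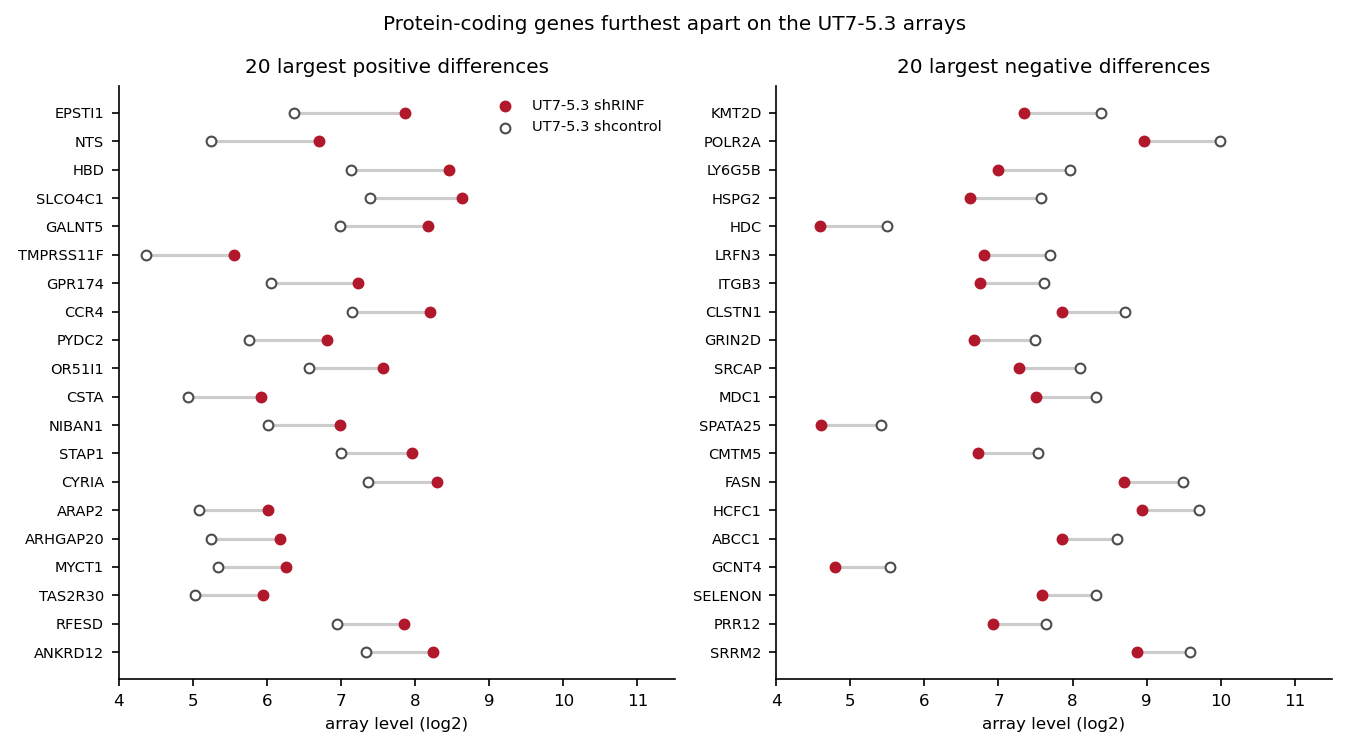
Log2 array level of the 20 protein-coding genes with the largest positive differences (left panel) and the 20 with the largest negative ones (right panel), red for UT7-5.3 shRINF and open for UT7-5.3 shcontrol, 1 array each. The bar between the points is the difference, 1.5 for EPSTI1 and -1.04 for KMT2D, and the panels show genes chosen for that difference.

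A block of small nucleolar RNAs on chromosome 14 was higher throughout in shRINF. SNORD113 and SNORD114 genes are tandem copies of box C/D small nucleolar RNAs in the imprinted DLK1-MEG3 region, expressed from the maternal chromosome within a long noncoding transcript, and no target RNA is established for them. All 38 kept copies of 40 on the array were higher in shRINF, with a median of 0.965 and a range from 0.25 to 1.51. Of these, 33 were higher by 0.5 or more (86.8%, against 3.45% of all genes) and 16 by 1 or more. Over all genes 0.208% were 1 or more higher, and these 16 copies are among them. SNORD114-24 was at 5.83 in shRINF and 4.32 in shcontrol (1.51), SNORD114-16 at 7.52 in shRINF and 6.12 in shcontrol (1.40), and SNORD113-9 at 6.96 in shRINF and 5.57 in shcontrol (1.39). The 2 brightest copies were less far apart: SNORD114-14 was at 10.31 in shRINF and 9.68 in shcontrol (0.63), and SNORD114-20 at 10.17 in shRINF and 9.81 in shcontrol (0.36). On the control array 9 copies were under 5, and over copies at 5 or more on both arrays the median was 0.83. The copies resemble each other in sequence, so that their features may share signal and are not independent.

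The neighbours of this block lay closer to 0. MEG3, the long noncoding RNA upstream of the copies, was at 7.71 in shRINF and 7.83 in shcontrol (-0.12), and the protein-coding DLK1 at 5.70 in shRINF and 5.80 in shcontrol (-0.10). MEG9, downstream, was at 5.33 in shRINF and 5.48 in shcontrol (-0.15). Trend removal turned the signs of DLK1 and MEG9, to at most 0.04. The 12 kept microRNA features of the region had a median of 0.02, from -0.41 for MIR2392 to 0.55 for MIR323B. In K562 and MV4-11 the median level of the 38 copies was 2.85 and 2.84, near the lowest values on the arrays, with median differences of 0.02 and 0.02. Box C/D small nucleolar RNAs outside the block had a median of 0.05 in UT7-5.3, with 42 of 73 above 0 and 1 at 0.5 or more. Box H/ACA small nucleolar RNAs had a median of 0.08, though SNORA2A was at 6.86 in shRINF and 7.89 in shcontrol (-1.03). Small Cajal body RNAs, which guide modification of spliceosomal RNAs, were above 0 in 14 of 18 cases, with SCARNA18 at 6.24 in shRINF and 5.37 in shcontrol (0.87).

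The beta-globin region of chromosome 11 held a second group of neighbouring genes that were higher together. HBB, the adult beta-globin gene, was at 6.03 in shRINF and 5.47 in shcontrol (0.56). The pseudogene HBBP1, between the fetal and adult genes, was at 9.22 in shRINF and 8.61 in shcontrol (0.61). The olfactory receptor genes beside the cluster were higher too: OR51B4 was at 7.24 in shRINF and 6.44 in shcontrol (0.80), OR51B2 at 6.63 in shRINF and 5.81 in shcontrol (0.82), and OR51I1 at 7.57 in shRINF and 6.57 in shcontrol (1.0). The kept genes on the outer sides were TRIM68 at -0.09 and TRIM5 at 0.20. No fetal or embryonic globin gene of the region was among its kept genes. All 6 genes in the list of globins and the alpha-globin chaperone that had a feature with 1 symbol were kept. Globin genes without such a feature were not assessed, so their levels are not known here. In K562, HBBP1 was at a mean level of 10.71, OR51B4 at 9.54 and HBD at 6.32, while HBB, at 4.79, was under the level minimum. Of the genes from HBB to OR51I1, HBD (0.65) and HBB (0.24) differed by more than 0.2 in K562. In MV4-11 the mean levels of the globin and olfactory receptor genes were between 3.35 and 4.09.

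**Figure D2:**
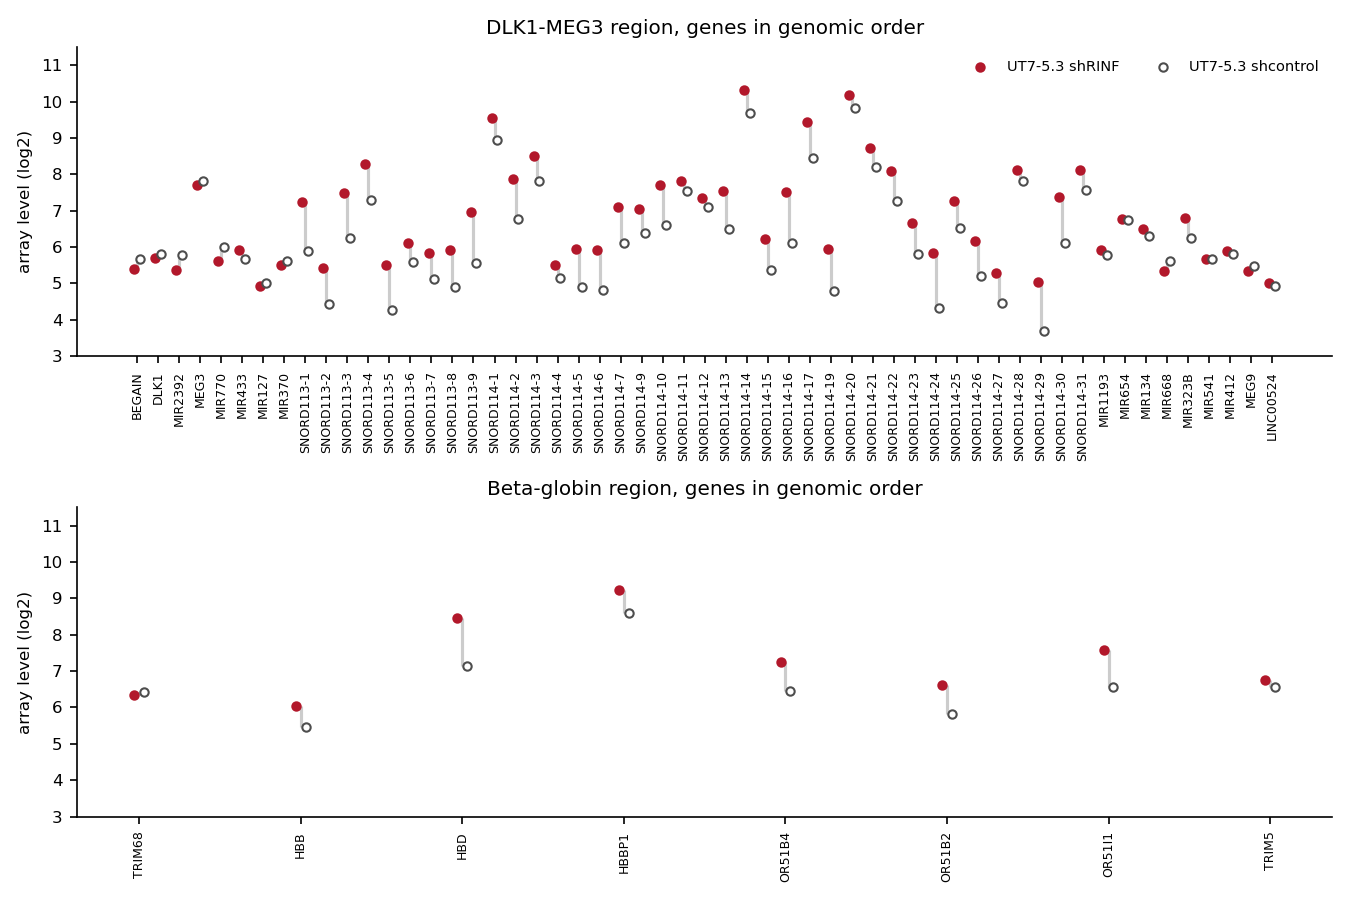
Log2 array level of each kept gene of the DLK1-MEG3 region (upper panel) and of the beta-globin region (lower panel) in genomic order, red for UT7-5.3 shRINF and open for UT7-5.3 shcontrol, 1 array each. The 38 SNORD113 and SNORD114 copies have the red point above the open one, while MEG3 and DLK1 have it slightly below, and in the lower panel HBB to OR51I1 are higher in shRINF.

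The promoter of HBD is shown because delta-globin is weakly expressed in red cells and its promoter is known to have lost the CACCC element of beta-globin. The stretch runs from 250 bases before to 50 after the RefSeq start of HBD, chr11:5234434-5234733 of GRCh38.p14, minus strand, 5′ to 3′, with capitals marking CCAAT and TTATCT, the reverse complement of the GATA motif AGATAA.
HBD: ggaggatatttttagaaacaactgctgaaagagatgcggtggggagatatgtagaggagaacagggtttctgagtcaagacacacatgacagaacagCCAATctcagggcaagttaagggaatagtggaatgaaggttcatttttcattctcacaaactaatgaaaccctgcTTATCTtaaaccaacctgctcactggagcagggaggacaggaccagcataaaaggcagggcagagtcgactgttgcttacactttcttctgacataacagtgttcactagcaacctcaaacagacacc
Both strands were searched for the GATA motif, which stands in 10.5% of the 27305 promoters of this length in the table. The CACCC motif was searched as CCACCC, present in 33.4% of promoters, and the CCAAT box as the letters CCAAT, present in 35.7%. The HBD window held the GATA motif 78 bases before the start, the letters CCAAT 153 bases before it, and no CACCC motif. Whether the CCAAT match corresponds to the CCAAT box of other globin promoters was not tested. A match in these letters is a description of the window and not a binding site.

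Other red cell genes were mixed. Of the 11 genes in the list of globins and the alpha-globin chaperone, 6 had a feature with 1 symbol, and the others were not assessed. All 6 were kept and above 0, 3 of them by 0.5 or more (3.45% of all genes are), with a median of 0.47. AHSP, the chaperone of free alpha-globin, was at 5.98 in shRINF and 5.39 in shcontrol (0.59), and the embryonic HBZ at 11.88 in shRINF and 11.51 in shcontrol (0.37). CA1, a red cell carbonic anhydrase, was at 7.49 in shRINF and 6.72 in shcontrol (0.77), and the membrane protein EPB42 at 6.78 in shRINF and 6.35 in shcontrol (0.43), but the band 3 anion exchanger SLC4A1 was at 6.23 in shRINF and 6.43 in shcontrol (-0.20). Haem synthesis genes were split evenly, 7 above and 7 below 0, from CPOX at -0.52 to ABCB10 at 0.34. Iron genes were above 0 in 8 of 10 cases, with SLC40A1, the iron exporter ferroportin, at 10.44 in shRINF and 10.16 in shcontrol (0.28). The median of that list was 0.18, and 0.08 once trends with level, span and promoter CpG were removed.

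The transcription factors of both lineages had a list median of -0.05, and of -0.11 with the trend in level removed, with 7 of 17 higher. GATA1 was at 9.83 in shRINF and 9.81 in shcontrol, while GATA2, the factor of earlier progenitors, was at 8.75 in shRINF and 9.25 in shcontrol (-0.50). ZFPM1, the GATA cofactor FOG1, was at 7.38 in shRINF and 7.78 in shcontrol (-0.40). Megakaryocytic genes went both ways. The integrin chains of the platelet fibrinogen receptor were lower, ITGB3 at 6.75 in shRINF and 7.61 in shcontrol (-0.86) and ITGA2B at 8.21 in shRINF and 8.79 in shcontrol (-0.58), as was the platelet chemokine PF4 (-0.50). The granule transport GTPase RAB27B was at 6.02 in shRINF and 5.42 in shcontrol (0.60), the platelet tubulin TUBB1 at 6.59 in shRINF and 6.05 in shcontrol (0.54), and CD36 at 6.26 in shRINF and 5.76 in shcontrol (0.50). The median of the platelet list was -0.10, and its sign turned once the trend with mean level was removed (0.03). CD34, a marker of progenitors, was at 8.35 in shRINF and 8.90 in shcontrol (-0.55).

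Interferon-stimulated genes and RNA sensors included some of the higher genes but did not move as a whole. Of the 29 kept of 42 on the array, 21 were above 0 and 7 were at 0.5 or more (24.1%, against 3.45% of all genes), with none at -0.5 or less and a median of 0.15. SAMD9L, an antiviral factor, was at 6.17 in shRINF and 5.31 in shcontrol (0.86), and IFIH1, the RNA sensor MDA5, at 6.60 in shRINF and 5.79 in shcontrol (0.81). The others at 0.5 or more, named after their values were seen, were SAMD9 (0.73), PARP14 (0.68), IFI44 (0.63) and HERC5 (0.60). The lowest members were BST2 at -0.36 (8.62 in shRINF, 8.98 in shcontrol) and IRF7, a regulator of interferon genes, at -0.29. Well-known interferon-induced members nearer 0, also named after their values were seen, were ISG15 at -0.04, IFITM1 at 0.12, IFITM3 at 0.12 and IFIT3 at 0.17. With trends in level, span and promoter CpG removed, the median of the list was 0.30. In K562 and MV4-11 its medians were 0.00 and 0.08.

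The promoters of EPSTI1 and IFIH1 are shown because both genes are higher and both windows hold the core of the interferon-stimulated response element (GAAA, any 2 bases, GAAA), the sequence bound by the interferon-activated complex ISGF3. Each stretch runs from 250 bases before to 50 after the RefSeq start on GRCh38.p14, minus strand, 5′ to 3′, at chr13:42992192-42992491 for EPSTI1 and chr2:162318635-162318934 for IFIH1. Both strands were searched, and capitals mark the matches.
EPSTI1: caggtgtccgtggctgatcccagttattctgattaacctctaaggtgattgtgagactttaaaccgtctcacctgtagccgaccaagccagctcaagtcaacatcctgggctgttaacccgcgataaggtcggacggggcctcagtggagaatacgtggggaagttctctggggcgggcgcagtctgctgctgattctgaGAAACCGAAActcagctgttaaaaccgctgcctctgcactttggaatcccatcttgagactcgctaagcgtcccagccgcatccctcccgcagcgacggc
IFIH1: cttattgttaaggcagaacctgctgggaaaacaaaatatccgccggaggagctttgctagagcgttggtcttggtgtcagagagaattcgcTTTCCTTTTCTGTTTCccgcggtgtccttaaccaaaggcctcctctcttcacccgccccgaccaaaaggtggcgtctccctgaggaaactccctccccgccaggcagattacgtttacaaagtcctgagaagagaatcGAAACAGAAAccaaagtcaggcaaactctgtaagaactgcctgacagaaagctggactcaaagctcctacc
The first match in IFIH1 is a pair of overlapping matches on the opposite strand. The motif was in 16 of the 25 interferon list genes with a promoter in the table (64.0%), against 3.65% of all 27305 promoters and 2.55% of those of the kept genes. Within the list it did not separate higher from lower genes: the median difference was 0.14 with the motif and 0.29 without it. SAMD9L (0.86) had no match in its window, and BST2 (-0.36) had 2.

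The inflammatory list was not higher in general (7 of 17 above 0, median -0.12), but PTGS2, the inducible cyclooxygenase, was at 6.20 in shRINF and 5.34 in shcontrol (0.86). Components of the GM-CSF and erythropoietin receptor pathway were mostly lower, 22 of 25 (median -0.10, and -0.19 with the trend in level removed). IL3RA, the interleukin-3 receptor alpha chain, was at 6.47 in shRINF and 6.87 in shcontrol (-0.40), whereas the kinase JAK2 was at 8.02 in shRINF and 7.51 in shcontrol (0.51). The TGF-beta and BMP pathway had 16 members above and 11 below 0. Its ligand TGFB1 was at 9.32 in shRINF and 9.86 in shcontrol (-0.54), its receptor ACVR2A at 6.27 in shRINF and 5.76 in shcontrol (0.51), and the common mediator SMAD4 at 8.52 in shRINF and 8.01 in shcontrol (0.51). The Wnt list had 10 of 24 above 0 and none 0.5 or more apart, from the adaptor DVL3 at -0.41 to the receptor LGR4 at 0.42. All 13 kept retinoid receptor and response genes were below 0, by 0.08 to 0.36, with RARA, the retinoic acid receptor alpha, at 6.66 in shRINF and 6.99 in shcontrol (-0.33). Their median of -0.22 was -0.12 with the trends in level, span and promoter CpG removed.

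Antigen presentation genes were lower in 15 of 17 cases (median -0.23). CD74, the invariant chain, was at 7.31 in shRINF and 7.95 in shcontrol (-0.64), HLA-DRB1 at 10.31 in shRINF and 10.84 in shcontrol (-0.53), and their transcriptional activator CIITA at 6.35 in shRINF and 6.87 in shcontrol (-0.52). B2M, the class I light chain, was at 10.44 in shRINF and 10.17 in shcontrol (0.27). Lists of markers of other cell types, at median levels of 5.54 to 5.75, lay at similar medians: lymphoid markers were lower in 13 of 14 cases (median -0.23), fibroblast and epithelial markers in 8 of 9 (-0.22), keratin family genes in 59 of 61 (-0.19), and T cell receptor and immunoglobulin segments in 65 of 75 (-0.18). The part of this general shift of dim features in the lower medians of other lists was not tested beyond the removal of trends, which put the antigen presentation list at -0.10 and the immediate early genes, measured at -0.14, at -0.02. Removing the trend with mean level alone put these 4 lists of other cells at -0.07 to -0.11. In that same setting the antigen presentation list, whose median level was 7.045, was at -0.16. Granulocytic and monocytic effector genes were below 0 in 15 of 24 cases, with the integrin ITGAM at 8.01 in shRINF and 8.47 in shcontrol (-0.46).

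Large chromatin coactivators included several of the lowest genes. Of 26 kept, 18 were below 0 and 6 (23.1%, against 1.22% of all genes) were at -0.5 or less, with a median of -0.25 at a median level of 8.32. Beside KMT2D, SRCAP and HCFC1, the remodeller EP400 was at 6.53 in shRINF and 7.16 in shcontrol (-0.63), and ARID1A, a BAF complex subunit, at 8.20 in shRINF and 8.81 in shcontrol (-0.61). ZNF292 (8.63 in shRINF, 8.07 in shcontrol) and the Mediator kinase module subunit MED13 (9.71 in shRINF, 9.41 in shcontrol) were above 0. The median was -0.36 with trends in level, span and promoter CpG removed and -0.41 when promoter GC was added to them. In K562 and MV4-11 the medians of the list were -0.03 and 0.03. POLR2A stood apart from the other subunits of its enzyme, of which POLR2E was next at -0.29 (9.45 in shRINF, 9.74 in shcontrol) and POLR2B was at 0.26 (9.99 in shRINF, 9.73 in shcontrol).

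Genes of cell division lay above 0. All 21 kept replication-dependent histone genes were higher in shRINF, by 0.09 to 0.78 (median 0.34), led by H2BC10 at 8.49 in shRINF and 7.71 in shcontrol, H2AC6 at 8.54 in shRINF and 7.91 in shcontrol, and H2BC3 at 6.26 in shRINF and 5.65 in shcontrol. Mitotic kinases, kinesins and kinetochore genes were higher in 36 of 42 cases (median 0.27), 7 of them by 0.5 or more (16.7%, against 3.45% of all genes). CENPE, a kinetochore motor, was at 8.58 in shRINF and 7.74 in shcontrol (0.84), and KIF14 at 8.65 in shRINF and 7.93 in shcontrol (0.72). The separase gene ESPL1 was at 7.22 in shRINF and 7.57 in shcontrol (-0.35), and the kinase PLK1 at 10.47 in shRINF and 10.65 in shcontrol (-0.18). DNA replication genes were higher in 27 of 42 cases, none by 0.5 or more (median 0.12). In MV4-11 the histone and mitotic lists had medians of 0.28 and 0.28, and in K562 0.10 and 0.04. These are well expressed genes, with median levels of 8.10 for the histones and 8.81 for the mitotic list, and the brightest groups of genes had medians above 0 in general. The histone median was 0.24 with the trend in level removed and 0.18 with trends in level, span, promoter CpG and promoter GC removed together, over the members that have those values.

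Proteasome subunits were higher in 24 of 28 cases by little (median 0.17, and 0.07 with the trend in level removed), none by 0.5 or more. Heat shock proteins were higher in 10 of 14 cases, with CHORDC1 at 9.32 in shRINF and 8.75 in shcontrol (0.57). NRF2 targets and NADPH enzymes were higher in 14 of 20 cases (median 0.17, and 0.07 with the trend in level removed). Of these SLC7A11, the cystine importer, was at 8.06 in shRINF and 7.28 in shcontrol (0.78), and the aldo-keto reductases AKR1C1 and AKR1C2 had differences of 0.59 and 0.56. The lowest of the list were OSGIN1 (-0.20, and 0.02 with the trends in level, span, promoter CpG and promoter GC removed) and KEAP1 (-0.18), the sensor that restrains NRF2. DYNLRB1, a light chain of cytoplasmic dynein, was at 8.45 in shRINF and 7.58 in shcontrol (0.87), with differences of 0.47 in K562 and 0.88 in MV4-11, while the dynein heavy chain DYNC1H1 was at 9.10 in shRINF and 9.37 in shcontrol (-0.27). The cholesterol synthesis and uptake list was split, 14 above and 9 below 0, from HMGCS1 at 0.48 to SREBF1 at -0.41 (7.19 in shRINF, 7.60 in shcontrol).

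C2H2 zinc finger genes of the ZNF family, which encode DNA-binding repressors that often act on retroelements, were higher in 274 of 420 cases and lower in 141 (median 0.15). At 0.5 or more, 39 (9.29%, against 3.45% of all genes) were higher and 1 was lower. ZNF468 was at 8.36 in shRINF and 7.51 in shcontrol (0.85), and ZNF675 at 8.06 in shRINF and 7.29 in shcontrol (0.77), while ZNF8 was at 7.40 in shRINF and 7.98 in shcontrol (-0.58). On chromosome 19, where the family lies in large clusters, 159 of 209 ZNF genes were higher with a median of 0.21, against 118 of the 1008 other genes of that chromosome, whose median was -0.19. ZNF genes on other chromosomes had a median of 0.07 with 115 of 211 higher. ZNF genes of chromosome 19 had medians of 0.07 in K562 and -0.03 in MV4-11.

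**Figure D3:**
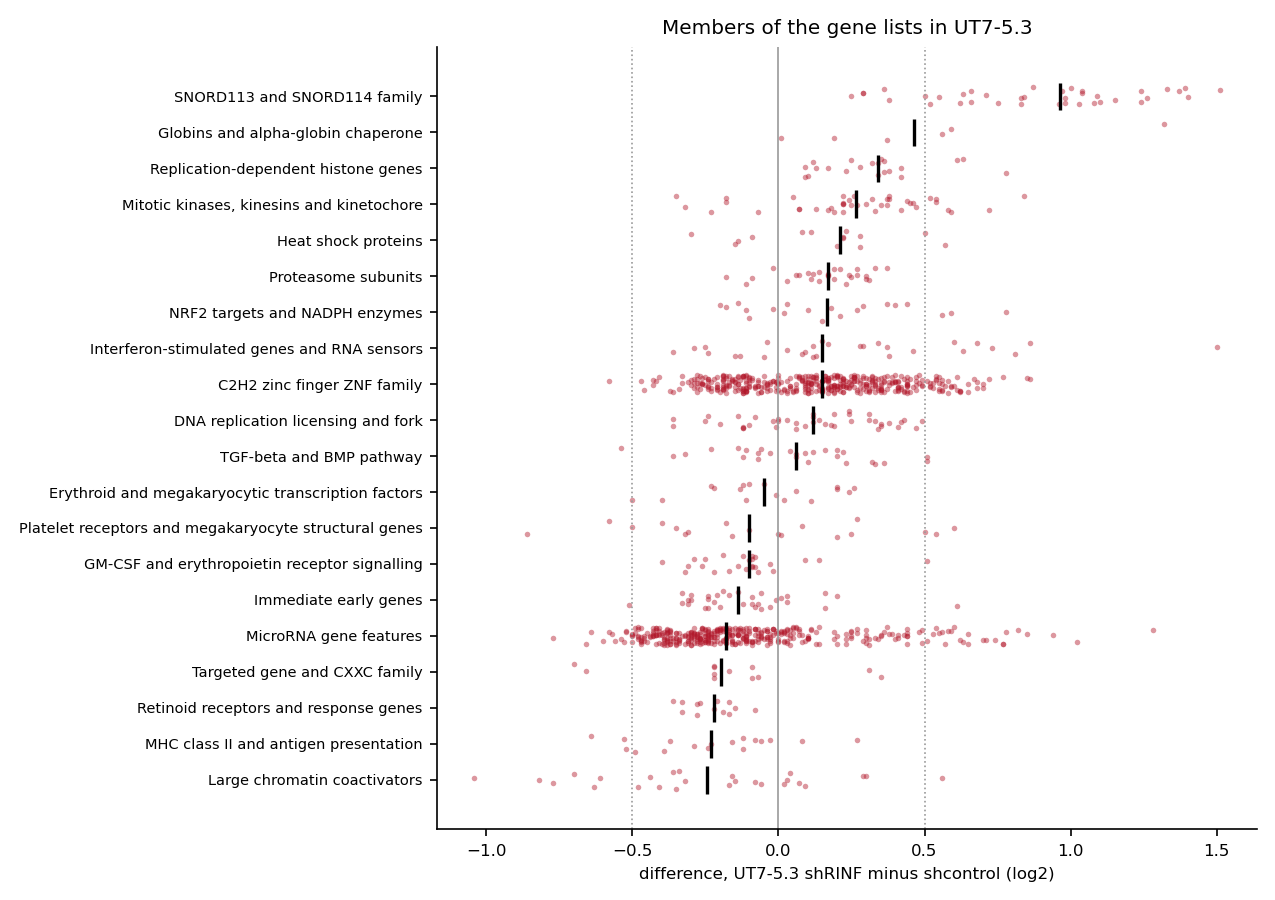
Difference in log2 units, UT7-5.3 shRINF minus shcontrol, for every kept member of 20 gene lists (points, spread vertically for legibility), with the list median as a black bar and dotted lines at 0.5 log2 units either way. The SNORD113 and SNORD114 points lie wholly above 0 around a median of 0.965, and the coactivators reach down to -1.04.

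The differences varied with the properties of the genes. When genes were divided into 10 groups by mean level, the median difference was -0.14 in the dimmest group and 0.13 in the brightest, and the share above 0 was 23.4% and 71.1% in these groups. Protein-coding genes divided by genomic span had medians of -0.14 in the shortest group and 0.09 in the longest. By the GC content of the promoter the medians were 0.08 in the lowest group (47.3% GC) and -0.14 in the highest (79.3% GC). By promoter CpG observed over expected, which sets CpG island promoters apart from others, they were -0.14 in the lowest group and 0.01 in the highest. In K562 and MV4-11 no group of any of these divisions had a median beyond 0.03 in either direction.

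Over the 10322 protein-coding genes with a promoter in the table, the difference correlated with promoter GC at a Pearson r of -0.19, with span at 0.18 (Spearman 0.29) and with mean level at 0.28. These are correlations across genes of the same pair of arrays, and genes are not independent replicates. The 390 protein-coding genes at 0.5 or more had a median span of 68966 bases and a median promoter GC of 60.3%. The 134 at -0.5 or less had 24490 bases and 66.0%, and all protein-coding genes 25782 bases and 65.0%. By chromosome, the medians were highest on chromosomes 4 (0.18) and 13 (0.14) and lowest on chromosomes 22 (-0.17) and 19 (-0.16). Pseudogenes were higher in 321 of 454 cases (median 0.15), and long noncoding RNAs lower in 489 of 674 (median -0.13). Among the long noncoding RNAs, LINC03106 was furthest up of all genes, at 6.52 in shRINF and 4.77 in shcontrol (1.75), and LINC01001 furthest down, at 7.43 in shRINF and 8.56 in shcontrol (-1.13). LINC03106 reached the level minimum on the shRINF array only.

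**Figure D4:**
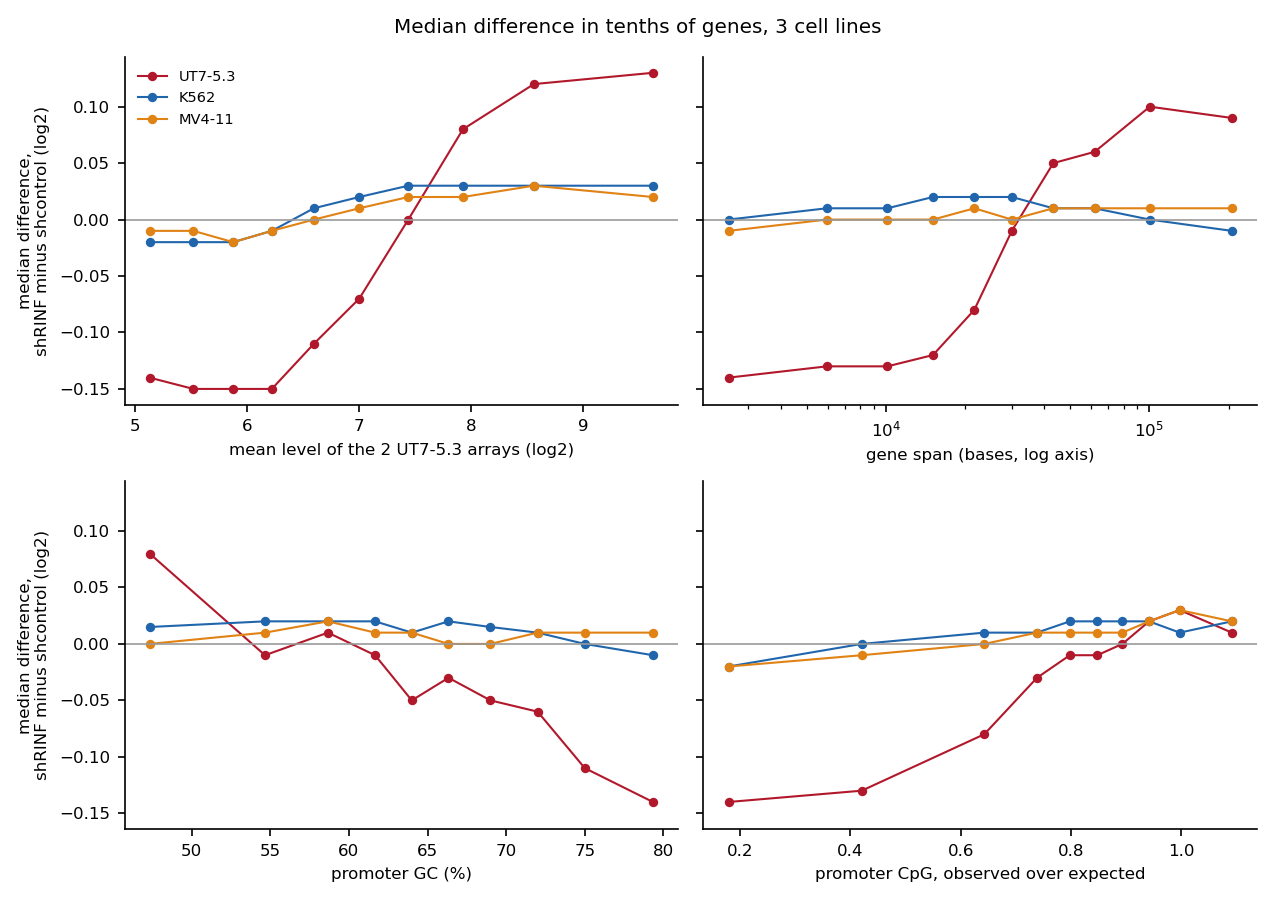
Median log2 difference, shRINF minus shcontrol, in 10 equal groups of genes by mean level on the UT7-5.3 arrays, genomic span (log axis), promoter GC and promoter CpG observed over expected, for UT7-5.3 (red), K562 (blue) and MV4-11 (orange). The UT7-5.3 medians run between -0.15 and 0.13 over mean level, while those of the other lines stay within 0.03 of 0.

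MicroRNAs are short RNAs cut from hairpin precursors, and they repress messenger RNAs that pair with their seed. MicroRNA gene features were lower in 285 of 393 cases (median -0.18), with 24 at 0.5 or more (6.11%, against 3.45% of all genes) and 15 at -0.5 or less (3.82%, against 1.22%). The mature sequences of the 5 highest and 5 lowest with an entry in the RefSeq table are shown because the groups differ in base composition. They are given 5′ to 3′ with the seed, bases 2 to 8, in capitals, the higher genes first.
hsa-miR-4500: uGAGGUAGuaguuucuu
hsa-miR-3975: uGAGGCUAaugcacuacuucac
hsa-miR-186-3p: gCCCAAAGgugaauuuuuuggg
hsa-miR-3662: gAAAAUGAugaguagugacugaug
hsa-miR-548m: cAAAGGUAuuugugguuuuug
hsa-miR-4466: gGGUGCGGgccggcgggg
hsa-miR-4476: cAGGAAGGauuuagggacaggc
hsa-miR-4674: cUGGGCUCgggacgcgcggcu
hsa-miR-4635: uCUUGAAGucagaacccgcaa
hsa-miR-602: gACACGGGcgacagcugcggccc

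On GRCh38.p14, miR-4500 lies at chr13:87618671-87618687 (minus strand), miR-3975 at chr18:35591782-35591803 (plus) and miR-186-3p at chr1:71067642-71067663 (minus). Likewise miR-3662 lies at chr6:134979355-134979378 (minus) and miR-548m at chrX:95063192-95063212 (minus). Of the lower genes, miR-4466 lies at chr6:156779710-156779727 (minus), miR-4476 at chr9:36893466-36893487 (minus) and miR-4674 at chr9:136546182-136546202 (minus). The last of them, miR-4635 and miR-602, lie at chr5:1062904-1062924 (minus) and chr9:137838434-137838456 (plus). For MIR186 only the 3p form was among the RefSeq entries used, so the seed of any 5p form is not shown. The 10 seeds shown are all different. That of miR-4500, GAGGUAG, is the seed of let-7, and 10 other mature names in the table carry it, among them let-7a-5p, the family known for restraining proliferation.

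MIR4500 was at 6.58 in shRINF and 5.56 in shcontrol (1.02), MIR3975 at 5.50 in shRINF and 4.65 in shcontrol (0.85), and MIR186 at 7.24 in shRINF and 6.42 in shcontrol (0.82). At the other end, MIR4466 was at 11.51 in shRINF and 12.28 in shcontrol (-0.77), and MIR4674 at 8.69 in shRINF and 9.29 in shcontrol (-0.60). MIR548W was further up, at 6.98 in shRINF and 5.70 in shcontrol (1.28). The hairpins of the 5 higher genes had a GC content of 32.6% to 42.1%, and those of the 5 lower genes 54.3% to 85.2%. Of the 24 features at 0.5 or more, 9 have a hairpin sequence in the table, and the other 15, MIR548W among them, are in neither the correlation nor its plot. Over the 314 kept microRNA features with a hairpin sequence, hairpin GC and the difference correlated at a Pearson r of -0.55 (Spearman -0.47), against 0.09 in K562 and -0.04 in MV4-11. Restricting the features to the 279 at 5 or more on both UT7-5.3 arrays gave -0.55. The points share the same 2 arrays in each line, and GC content also went with mean level (r = 0.40). Divided into 5 groups by hairpin GC, the lowest group had a median of 0.00 with 31 of 63 above 0 and 9 at 0.5 or more. The highest group had a median of -0.32 with 0 of 63 above 0. Whether a feature reads the hairpin, its host transcript or the mature form is not given in the sources used here.

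**Figure D5:**
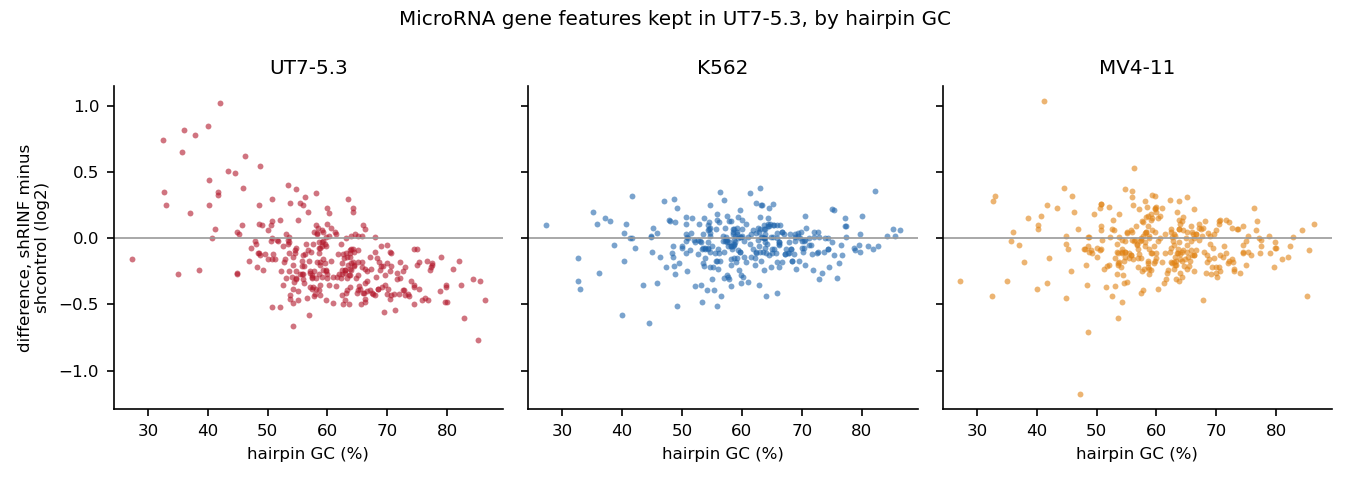
Log2 difference, shRINF minus shcontrol, against hairpin GC content (%) for 314 microRNA gene features kept in UT7-5.3, in UT7-5.3, K562 and MV4-11. The UT7-5.3 points slope downwards (r = -0.55), with the 9 plotted features at 0.5 or more at a GC content of 48.8% or less, and the points of the other lines do not (r = 0.09 and -0.04).

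The UT7-5.3 differences were weakly shared with the other lines. Over the 14105 genes also kept in K562 the differences correlated at r = 0.16, and over 14109 kept in MV4-11 at r = 0.12. Of the genes at 0.5 or more in UT7-5.3, 60.4% were above 0 in K562 (52.2% of all genes) and 59.4% in MV4-11 (49.0% of all). Of those at -0.5 or less, 45.0% were below 0 in K562 (43.0% of all) and 46.1% in MV4-11 (47.4% of all). Among the genes kept in 3 lines, 114 of 348 (32.8%) of the higher ones were above 0 in both other lines, against 26.4% of all, and 33 of 163 (20.2%) of the lower ones were below 0 in both, against 21.1%. No gene was 0.5 or more apart in the same direction in all 3 lines, CXXC5 included, since its K562 difference was -0.45. DYNLRB1, at 0.87 in UT7-5.3 and 0.88 in MV4-11, was at 0.47 in K562.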

How the data were processed

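The authors deposited 1 log2 expression value per feature and array, per the file headers and the submitters' processing notes, which name RMA and Affymetrix Expression Console. Tool versions and build: not given in the sources used here. The log base was inferred as 2 from the values, which run from 1.63 to 13.89. RMA gives all arrays a common distribution, so a shift of most transcripts is lost. Per the labels, 400 ng of total RNA was labelled per array, and no shRNA sequence or time after transduction is stated.

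Features with several symbols (1543) or none listed (42204) were left out. Symbols were matched to RefSeq genes of GRCh38.p14 (14879 of 14882 genes) for type, genomic span, promoters and microRNA sequences. For the 286 genes with several features the brightest stood for the gene, and the features of a gene differed by a median of 0.08. The trend with mean level was a lowess curve (span 0.3, 3 iterations, statsmodels 0.14.6), and trends with several properties were regression splines. Python 3.11.15, pandas 2.3.3 and numpy 2.4.6 were used, and the steps were tested on simulated shifts.

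With 1 array a side no test was run. Named genes are CXXC5, SMAD7, the 20 highest and 20 lowest protein-coding genes, the 6 highest and 6 lowest others, up to 3 each way from each of 54 lists, and up to 5 each way at 1 or more whose sign is opposite in both other lines, Y-linked genes left out. Chosen beyond that rule, with values seen, were ARID1A, EP400, GATA1, HERC5, IFI44, IFIT3, IFITM1, IFITM3, ISG15, KIT, KRT8, KRT18, LYZ, PARP14, PLK1, SAMD9, SNORD113-3, SNORD114-14, SNORD114-20, the microRNAs with sequences, and the neighbours in the DLK1-MEG3 and beta-globin regions. The members and lists were chosen with earlier results of these data known. The share of a list set beside that of all genes is therefore a description and no test.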

Additional observations from a re-analysis of the deposited data

Results flagged for a closer look

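Of the 31 genes 1 log2 unit or more higher in UT7-5.3 shRINF, 7 were below 0 in both other lines, and of the 5 that much lower, 3 were above 0 in both. The difference between the lines was not tested. Of the 7 higher genes, the 5 that the rule for named genes takes were SNORD114-16 (1.40 in UT7-5.3, -0.05 in K562, -0.17 in MV4-11), SNORD114-30 (1.26, with -0.10 in K562 and -0.40 in MV4-11), SNORD114-2 (1.10, with -0.05 and -0.11 in the same lines), CCR4 (1.05, with -0.08 in K562 and -0.22 in MV4-11) and MIR4500 (1.02, with -0.07 in K562 and -0.15 in MV4-11). In both other lines these 5 features lay between 2.63 and 3.74 on every array, near the lowest values measured. The other 2 include SNORD113-3 (1.24 in UT7-5.3, -0.17 in K562, -0.02 in MV4-11). Over the 7, 6 were under 5 on all 4 arrays of the other lines and 1 reached 5 there.

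Lower in UT7-5.3 shRINF and above 0 in the others were KMT2D (-1.04 in UT7-5.3, 0.02 in K562, 0.02 in MV4-11), POLR2A (-1.03, with 0.03 in K562 and 0.01 in MV4-11) and SNORA2A (-1.03, with 0.06 in K562 and 0.25 in MV4-11). KMT2D was at 8.02 in K562 shRINF and 8.0 in K562 shcontrol, and POLR2A at 9.53 and 9.50 in the same arrays, so both genes were expressed in K562 at levels close to those in UT7-5.3. The opposite signs are of 0.03 or less for KMT2D and POLR2A.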

How the results depend on the processing

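Settings were varied in 9 ways, 8 of them planned and 1, the addition of promoter GC to the trends removed, chosen after the data were seen. CXXC5 stayed between -0.60 and -0.75. Of 300 recomputed list medians 270 moved by less than 0.1, and of 1045 recomputed gene differences 916 did. Both counts include settings that could not move a result that far, or hardly could. Changing the level leaves a gene's own difference as it is. The median subtracted was -0.06, which shifts every gene and every list median by less than 0.1. Averaging over a gene's features could change only the 286 genes with several features. With the trend in level alone removed, 62 named genes moved by 0.1 or more, 1 changed sign and 64 moved by less. With trends in level, span and promoter CpG removed, 26 moved, 1 changed sign and 59 moved by less. With a level of 6 on either array, or of 5 on both, the SNORD113 and SNORD114 median was 0.83. Subtracting the median difference gave 832 features higher and 120 lower at 0.5 or more, and 1 lower at 1 or more. Removing trends with level, span and promoter CpG left 267 features higher at 0.5 or more and 12 at 1 or more, among fewer features. With promoter GC added, 223 and 10 were higher and 3 were lower at 1 or more.

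With the trend in level alone removed, the medians were 0.028 for platelet genes, -0.111 for lymphoid markers, -0.097 for fibroblast and epithelial markers, 0.235 for histones, 0.068 for the proteasome, -0.066 for keratins and -0.074 for T cell receptor and immunoglobulin segments. DLK1 then turned to 0.028. With level, span and promoter CpG removed, they were 0.078 for iron genes, 0.102 for platelet genes, -0.029 for granulocytic genes, -0.098 for antigen presentation, -0.111 for lymphoid markers, -0.069 for fibroblast and epithelial markers and -0.118 for retinoid genes. In the same setting they were 0.298 for interferon-stimulated genes, -0.016 for immediate early genes, 0.079 for heat shock proteins, -0.363 for coactivators and -0.081 for keratins, and MEG9 turned to 0.027. With promoter GC added, they were 0.072 for platelet genes, 0.028 for granulocytic genes, -0.104 for lymphoid markers, -0.04 for fibroblast and epithelial markers, 0.179 for histones, 0.076 for heat shock proteins, -0.41 for coactivators, 0.052 for the proteasome and -0.06 for keratins, MEG9 was at 0.042 and OSGIN1 turned to 0.024. The platelet and granulocytic medians thus changed sign, and the cause was not tested. No paired analysis was possible because each condition of UT7-5.3 is 1 array. Without detection calls, dim features cannot be told from background, and 1 array a side leaves the precision of every difference unknown.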
